A study of Drosophila melanogaster with 4 samples.

Results

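The ecdysone response genes described here are 10 genes of the steroid hormone pathway that times insect molting and metamorphosis: EcR, usp, br, Eip74EF, Eip75B, Hr3, ftz-f1, Hr39, Eip93F and Eip71CD. They were chosen by gene symbol. In all, 9 of these symbols stood in the gene table as such, and Eip71CD was found there under its current symbol MsrA (FBgn0000565), of which it is a synonym in the RefSeq gene list. The table holds 10626 genes, of which 9228 had enough signal to be tested, and all 10 members were among them. Of the 46199 exon bins in the exon table, 48 belong to 6 of the members (EcR, br, Eip74EF, Eip75B, Eip93F and Eip71CD), and exon use of the other 4 was not analysed here.

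The samples were indirect flight muscle (IFM), the stretch-activated muscle that moves the wings through the thorax wall, dissected from 1 d adults raised at 27 °C. The control group was w1118, a white-eyed laboratory strain, and the mutant group was bru1M3, a CRISPR allele of the RNA-binding protein gene bru1 (Bruno1, a CELF family splicing regulator) in which a cassette with a splice acceptor, stop codons and a polyadenylation signal sits in the intron before the final coding exon, which every bru1 isoform uses. The allele is not limited to muscle, and it is 1 line. Each genotype had 2 replicates, dissected from 100 flies apiece, and the question was how loss of Bru1 changes gene expression and exon use.

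Ecdysone acts through a heterodimer of 2 nuclear receptors, EcR and Ultraspiracle (usp), which binds DNA and switches target genes on when hormone is present. The first targets, among them br, Eip74EF and Eip75B, encode transcription factors that pass the signal on, and the nuclear receptors Hr3, ftz-f1 and Hr39 act in the waves that follow each pulse. In the fly, pulses at the start of metamorphosis drive the breakdown of larval muscle and the building of the flight muscles, and the hormone has dropped by the time the adult ecloses.

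Deposited values could be traced back to whole numbers of reads, by a check that is loose for the highest counts. The libraries held 30384053 to 34105524 counted reads. Transcripts of the mitochondrial genome took 29.0% to 72.6% of them (95% Wilson intervals, which cover counting error only, lay within the last digit given), most in w1118, and left 8326712 reads on nuclear genes in w1118 replicate 1 but 21962285 in bru1M3 replicate 2; its part in the results was not tested beyond the scaling to nuclear totals. The targeted gene, bru1, had 1807 and 1386 normalized counts in w1118 and 10618 and 9976 in bru1M3 (log2 fold change 2.70, limma adjusted p = 1.9e-04). In the exon table, all 7 bru1 bins from the last coding exon onward had a lower usage score in bru1M3, by -10.4 to -3.84, and 10 of the 12 bins before it had a higher one. These scores are 1 value per genotype, so they check no single library. Flight muscle markers (Act88F, fln, TpnC4, Strn-Mlck, salm and Mhc) summed to between 1417110 and 2266820 normalized counts in every library. With limma 0 of these 6 were called and 0 had an unadjusted p under 0.05, and edgeR and DESeq2 called 0 each. In bulk muscle, fewer cells of a type and less RNA per cell cannot be told apart.

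Among the ecdysone response genes, Eip71CD alone passed the gene-level test, lower in bru1M3 IFM at 0.476 of its w1118 level. The other 9, from the receptor to the late factors, did not pass it, with log2 fold changes from -1.67 in Hr3 to 0.45 in br. With limma 1 of the 10 was called lower (adjusted p under 0.05 over all 9228 genes), where 9.33% of all tested genes were called lower, and 0 were called higher, where 12.8% of all genes were. At an unadjusted p under 0.05, which 36.7% of all genes reached in either direction, the numbers were 2 lower and 0 higher, and edgeR and DESeq2 on the recovered reads each called 1 lower and 0 higher. In all, 9 of the 10 log2 fold changes were negative and their median was -0.30, beside a median of 0.00 over all genes tested and quartiles of -0.53 and 0.55. The bru1M3 libraries lay wholly below the w1118 libraries in 6 members, against 31.6% of all genes, and wholly above in 1, against 32.9% of all genes, so that 7 of 10 were apart where 64.5% of all genes were. Hr3 is counted among the 6, as among the 9 negative changes and the 2 lower at an unadjusted p under 0.05. It entered the test only through w1118, where it is high, so its direction was set by the filter. Of the 2046 genes called in either direction (22.2% of those tested), 57.9% were higher in bru1M3, a share that was 47.8% with quantile normalization and 45.4% with equal totals of nuclear genes.

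**Figure D1:**
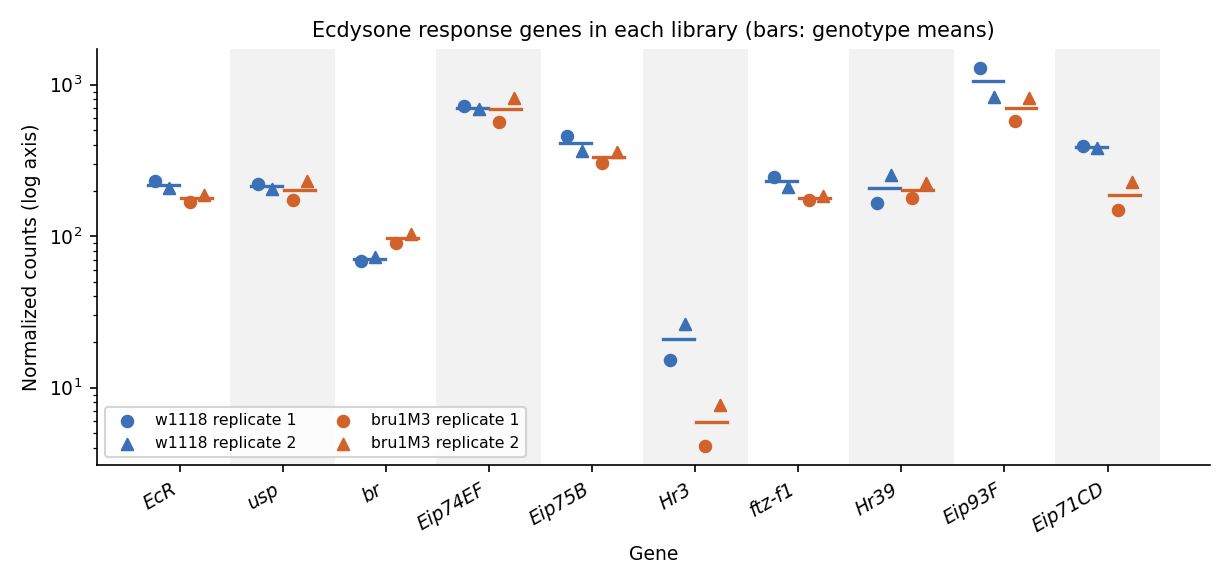
Normalized counts (log axis) of the 10 ecdysone response genes in each of the 4 libraries, with w1118 in blue, bru1M3 in orange, circles for replicate 1, triangles for replicate 2 and bars for genotype means (n = 2). The genotype means are furthest apart in Eip71CD, at 393 and 381 against 148 and 228, and in Hr3, the gene with the lowest level.

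The pair of receptor subunits was expressed in both genotypes. EcR (FBgn0000546; chromosome arm 2R, 6087873 to 6169087, minus strand) had 229.7 and 207 normalized counts in the w1118 libraries, with replicate 1 given first here and below, and 169 and 186 in the bru1M3 libraries. Both bru1M3 libraries were below both w1118 libraries, but the log2 fold change of -0.30 (standard error, SE, 0.23, 95% interval -0.83 to 0.24) did not pass the test (limma adjusted p = 0.392). Its partner usp (FBgn0003964; X, 2038798 to 2042311, minus strand), the fly counterpart of the vertebrate retinoid X receptors, had 221 and 206 normalized counts in w1118 and 173 and 232 in bru1M3. The bru1M3 replicates enclosed the w1118 ones, and the log2 fold change was -0.09 (95% interval -0.68 to 0.49, limma adjusted p = 0.824). Without bru1M3 replicate 1 it was 0.12.

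Of the 3 early genes, none passed the limma test. br (FBgn0283451; X, 1575132 to 1664869, plus strand) encodes the Broad zinc-finger proteins, which mark the pupal stage. It was the only member with a positive fold change: it had 68.1 and 72.3 normalized counts in w1118 and 89.4 and 104 in bru1M3, and both mutant libraries were above both controls. The log2 fold change was 0.45 (SE 0.30, 95% interval -0.26 to 1.17, limma adjusted p = 0.323), and the values rest on few reads, between 40 and 135 per library. Eip74EF (FBgn0000567; 3L, 17558672 to 17619325, minus strand), an ETS-domain transcription factor, had 718 and 686 normalized counts in w1118 and 566 and 811 in bru1M3. Here too the mutant replicates lay on either side of the controls, with a log2 fold change of -0.05 (95% interval -0.56 to 0.46, limma adjusted p = 0.890) that was 0.21 without bru1M3 replicate 1. Eip75B (FBgn0000568; 3L, 17950953 to 18064696, minus strand), a heme-binding nuclear receptor that represses Hr3 activity, had 461 and 367 normalized counts in w1118 and 306 and 359 in bru1M3. The groups were apart by a narrow margin, and the log2 fold change was -0.31 (95% interval -0.82 to 0.20, limma adjusted p = 0.342).

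The nuclear receptors of the later waves were not called either. Hr3 (FBgn0000448; 2R, 10203995 to 10237348, minus strand), which induces ftz-f1 in the prepupa, was near the limit of detection, with 9 and 24 reads behind the w1118 values and 6 and 10 behind those of bru1M3. In normalized counts these were 15.3 and 26.3 against 4.09 and 7.69. It had the largest log2 fold change in size among the members, -1.67 (SE 0.70, 95% interval -3.32 to -0.01), with an unadjusted p of 0.0486 and a limma adjusted p of 0.134. Hr3 entered the test only through its w1118 libraries, since neither bru1M3 library reached 10 normalized counts. In the annotation used here 82.7% of its exon sequence is shared on the same strand with other gene models (CG12912, CG46321 and lncRNA:CR46322), so its reads are uncertain. ftz-f1 (FBgn0001078; 3L, 18750607 to 18801309, minus strand), a competence factor for the response to the next pulse, had 247 and 213 normalized counts in w1118 and 174 and 185 in bru1M3. Its groups did not overlap, with a log2 fold change of -0.35 (95% interval -0.89 to 0.19, limma adjusted p = 0.309), and 29.4% of its exon sequence is shared with lncRNA:CR45939. Hr39 (FBgn0261239; 2L, 21237250 to 21259675, plus strand), a receptor related to ftz-f1, had 165 and 253 normalized counts in w1118 and 179 and 225 in bru1M3. The w1118 replicates enclosed those of bru1M3, and the log2 fold change of -0.03 (95% interval -0.70 to 0.65, limma adjusted p = 0.959) was 0.28 without w1118 replicate 2 and 0.13 without bru1M3 replicate 1.

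Eip93F (FBgn0264490; 3R, 21949114 to 22014539, plus strand), a transcription factor that specifies adult fates late in metamorphosis, was the member with the most normalized counts in w1118. It had 1285 and 825 there and 575 and 821 in bru1M3. The groups were apart only just, since w1118 replicate 2 and bru1M3 replicate 2 were almost level, while the w1118 replicates lay far from each other. The log2 fold change came to -0.58 (SE 0.27, 95% interval -1.22 to 0.05, limma adjusted p = 0.166). Over the alternatives its lowest value was -0.90 and its highest -0.26.

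Eip71CD (FBgn0000565; 3L, 15511052 to 15513202, plus strand) was found as a gene induced by ecdysone in cultured cells, and it encodes methionine sulfoxide reductase A, an enzyme that repairs oxidized methionine in proteins. The w1118 libraries had 393 and 381 normalized counts and the bru1M3 libraries 148 and 228, from 217 to 348 reads each. Both mutant libraries were far below the controls, which differed little. The log2 fold change was -1.07 (SE 0.26, 95% interval -1.69 to -0.45, limma adjusted p = 0.0272). This call held with edgeR (adjusted p = 0.0252), with DESeq2 (adjusted p = 0.00784) and under each other scaling, pseudocount and filter. It was lost without w1118 replicate 1 (adjusted p = 0.0883), without w1118 replicate 2 (adjusted p = 0.0716) and without bru1M3 replicate 1 (adjusted p = 0.137, log2 fold change -0.76), and held without bru1M3 replicate 2 (adjusted p = 0.0429).

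**Figure D2:**
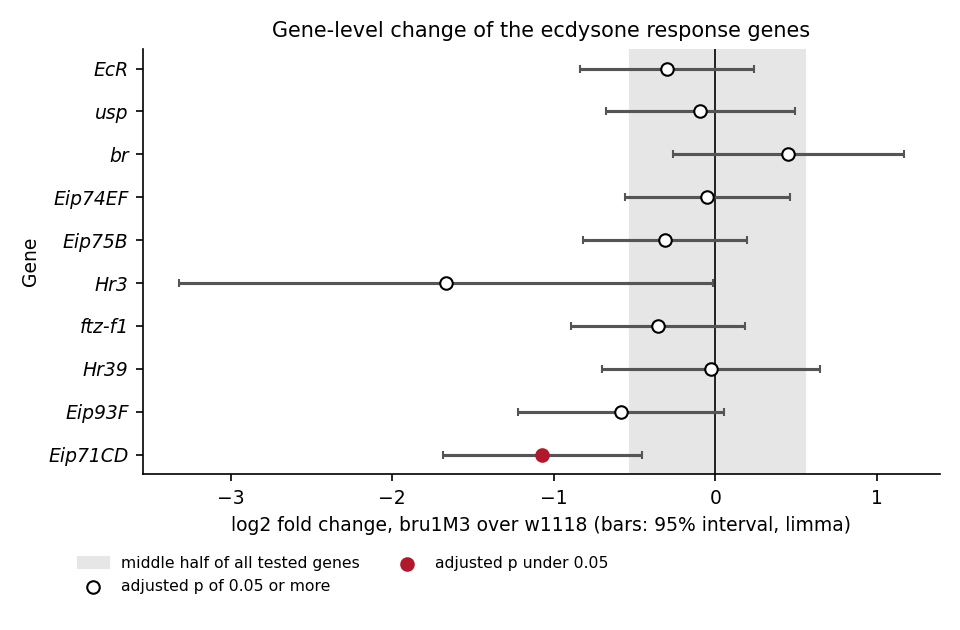
Log2 fold change of bru1M3 over w1118 (points) with its 95% interval from limma (bars) for the 10 ecdysone response genes; a filled point marks an adjusted p under 0.05, and the grey band runs from the lower to the upper quartile of all tested genes, -0.53 to 0.55. Only the interval of Eip71CD belongs to a called gene, and 7 of the 10 points lie inside the band.

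Several, but not all, lists of markers of other tissues were lower in the bru1M3 libraries, as Eip71CD was. Over all genes tested, 9.33% were called lower and 12.8% higher. Summed normalized counts of the 4 neuron markers (elav, nSyb, brp and Syt1) were 3286 and 5171 in w1118 and 1252 and 1840 in bru1M3, with 2 of the 4 called lower. The 4 hemocyte markers (Hml, NimC1, He and Ppn) summed to 5027 and 4658 in w1118 and 2913 and 3767 in bru1M3, and 2 of the 3 tested were called lower. The 6 gut markers (alphaTry, betaTry, Mal-A1, Amy-p, Jon65Aiii and CG12374) summed to between 13353 and 29072 in w1118 and between 4262 and 10689 in bru1M3, with 4 called lower. Mal-A1 and Amy-p were not called, at log2 fold changes of -0.49 and 0.34, and their groups overlapped. Photoreceptor markers (ninaE, trp, trpl, norpA and inaC) were highest in w1118 replicate 1, with a sum of 2859 against 476 to 706 in the other libraries. In those libraries norpA made up most of the sum, at 546 in w1118 replicate 2 and 469 and 508 in bru1M3. The bru1M3 replicates were unlike in the other markers: ninaE, trp, trpl and inaC were each at 1.36 to 2.05 in replicate 1 and at 13.8 to 97.7 in replicate 2. The pair of tubular muscle markers (Act79B and TpnC41C) summed to 4409 and 6092 in w1118 and 1604 and 2728 in bru1M3, and both were called lower. The 4 fat body markers summed to 1613 and 1575 in w1118 and 1595 and 1121 in bru1M3, with apolpp called lower (log2 fold change -1.05), Lsp2 called higher (log2 fold change 1.53), and Fbp1 and Yp3 not called at 1.22 and 0.94. The 4 trachea and epidermis markers summed to 2503 and 1819 in w1118 and 1761 and 2461 in bru1M3, so the groups overlapped. None of these markers was listed at 0 in any library. Their part in the lower level of Eip71CD, and in those of the other genes below, was not tested.

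Levels can be set side by side only per length, so normalized counts were divided by the length of each gene's annotated exons in kilobases. In w1118, Eip71CD was highest, with a mean of 286 normalized counts per kb. Eip93F, Eip74EF and usp followed with 83.2, 75.2 and 70.3, where the replicates of Eip93F lay on either side of those of both others, and Eip74EF was above usp in both replicates. Next came Hr39 at 41.9, Eip75B at 30.8, ftz-f1 at 26.8 and EcR at 22.0 per kb, where Hr39 and Eip75B overlapped, as did Eip75B and ftz-f1, while EcR was below ftz-f1 in both replicates. br at 3.47 and Hr3 at 1.99 per kb were lowest on this measure. In bru1M3 the order was Eip71CD at 139, Eip74EF at 73.8, usp at 66.6, Eip93F at 55.0, Hr39 at 40.5, Eip75B at 24.7, ftz-f1 at 20.9, EcR at 17.9, br at 4.78 and Hr3 at 0.563 normalized counts per kb. The order of the genotypes thus differed only in the place of Eip93F, whose bru1M3 replicates, at 45.3 and 64.7 per kb, overlapped those of Eip74EF and usp. The exon lengths, from 1354 bp in Eip71CD to 20201 bp in br, include alternative exons and long untranslated regions. A level per kb thus depends on how many of these a gene has. The lengths also include sequence shared with other gene models on the same strand, 82.7% in Hr3 and 29.4% in ftz-f1. How reads there were counted is not known, so the places of Hr3 and ftz-f1 in the order are uncertain.

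The members also differed between replicates of 1 genotype. On the authors' scaling, all 10 were higher in bru1M3 replicate 2 than in bru1M3 replicate 1. The log2 ratios ran from 0.08 in ftz-f1 to 0.77 in Hr3 with a median of 0.37. Other scalings were not tried for this order, and small ratios such as that of ftz-f1 depend on the scaling. Over all tested genes 50.6% were higher in replicate 2, with a median log2 ratio of 0.01. In w1118, 7 of the 10 were higher in replicate 1, where 51.6% of all genes were, and br, Hr39 and Hr3 were the exceptions. For usp, Eip74EF and Hr39, the bru1M3 replicates differed by more than the genotype means did. The neuron, hemocyte, photoreceptor, flight muscle, tubular muscle, and trachea and epidermis marker sums were also higher in bru1M3 replicate 2 than in replicate 1. The gut and fat body marker sums were lower, and the part of all these markers in this order was not tested.

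Beyond the 10 members, the pathway was covered by lists of 61 further genes in the table, 57 of them tested. limma called 10 of the 57 (17.5%) higher and 4 (7.02%) lower, beside 12.8% and 9.33% of all genes tested, with a median log2 fold change of 0.06 among them. The 4 lower genes were DopEcR, gce, hid and Cyp18a1, and the 10 higher ones Edg91, ImpL2, Hr38, Sox14, Eip63E, sad, mld, svp, Jheh2 and Eip55E. Edg91 and sad entered the test only through bru1M3, where they are high, so their place among the 10 follows in part from the filter. The lists were chosen with earlier results of these data known, so the counts are descriptive. The same shares of all genes are the background for the counts per list below.

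**Figure D3:**
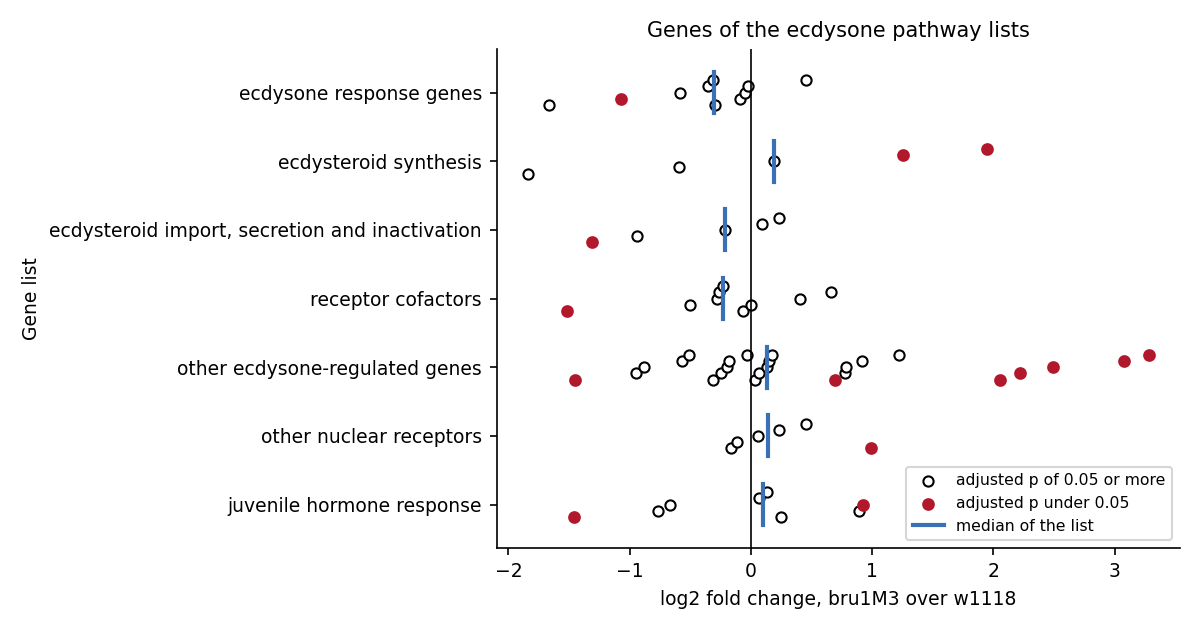
Log2 fold change of bru1M3 over w1118 for every tested gene of the ecdysone response genes and of 6 further pathway lists, 1 point per gene, filled where the limma adjusted p was under 0.05, with the list median as a blue line. The list medians lie between -0.30 and 0.19, and the called genes of the list of other ecdysone-regulated genes reach 3.28. Kr-h1 is in 2 lists.

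Among the enzymes and regulators of ecdysteroid synthesis, which takes place in the larval prothoracic gland and in adult gonads, 5 genes were tested, and 2 were higher and 0 lower by limma (2 of the 5 had an unadjusted p under 0.05, and edgeR and DESeq2 called 2 and 1). mld, a zinc-finger regulator of ecdysteroid synthesis, had 226 and 241 normalized counts in w1118 and 585 and 534 in bru1M3 (log2 fold change 1.25, SE 0.19, limma adjusted p = 0.00476). sad, a cytochrome P450 of the synthesis pathway, had only 10.2 and 7.67 normalized counts in w1118 and 44.4 and 30.8 in bru1M3 (log2 fold change 1.94, limma adjusted p = 0.0438). Both genes had higher values in both mutant libraries, but sad entered the test only through bru1M3, since w1118 replicate 2 was below 10 normalized counts, and its w1118 values rest on 6 and 7 reads.

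Of the genes for import, secretion and inactivation of the hormone, 5 were tested and 1 was lower. Cyp18a1, the cytochrome P450 that inactivates ecdysteroids, had 562 and 275 normalized counts in w1118 and 136 and 183 in bru1M3 (log2 fold change -1.31, SE 0.36, limma adjusted p = 0.0395). Its w1118 replicates lay far apart. Of the 9 receptor cofactors and alternative receptors, the 1 called was DopEcR, a membrane receptor for dopamine and ecdysone, with 311 and 397 normalized counts in w1118 and 97.6 and 154 in bru1M3. The log2 fold change came to -1.51 (SE 0.29, limma adjusted p = 0.0117). The coactivator gene tai had 369 and 274 normalized counts in w1118 and 253 and 366 in bru1M3, and the corepressor gene Smr had 288 and 211 against 212 and 289. In both genes the groups overlapped.

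The largest differences of the pathway lay in the list of other ecdysone-regulated genes, with a list median of 0.13. There 6 of the 25 tested (24%) were higher and 1 (4%) lower, beside 12.8% and 9.33% of all genes tested. ImpL2, a secreted protein that binds insulin-like peptides and was first isolated as ecdysone-inducible in imaginal discs, had 1002 and 1237 normalized counts in w1118 and 9519.5 and 9298 in bru1M3. The log2 fold change came to 3.08 (SE 0.17, limma adjusted p = 1.1e-04), and 61.9% of its exon sequence is shared with CG46460 on the same strand in the annotation used here. Sox14, an ecdysone-induced transcription factor known from neuron pruning, had 594 and 438 normalized counts in w1118 and 2194 and 2588 in bru1M3 (log2 fold change 2.22, SE 0.21, limma adjusted p = 5.2e-04). Eip63E, a cyclin-dependent kinase, had 458 and 501 normalized counts in w1118 and 1999 and 1994 in bru1M3 (log2 fold change 2.06, SE 0.16, limma adjusted p = 3.0e-04). In these 3 genes the replicates of each genotype were close together and far from those of the other.

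Hr38, the fly member of the NR4A family of nuclear receptors, had 63.0 and 43.8 normalized counts in w1118 and 366 and 248 in bru1M3 (log2 fold change 2.50, limma adjusted p = 0.00228). Edg91, a gene of the cuticle-forming epidermis, rose from 10.2 and 5.48 to 75.1 and 89.2 normalized counts (log2 fold change 3.28, limma adjusted p = 0.00479). It too entered the test only through bru1M3, where it is high, and its w1118 values rest on 6 and 5 reads. Eip55E, a gene of cysteine metabolism, was at 323 and 408 in w1118 and 566 and 611 in bru1M3 (log2 fold change 0.69, limma adjusted p = 0.0484). The cell death gene hid had 182 and 115 normalized counts in w1118 and 52.5 and 52.3 in bru1M3 (log2 fold change -1.45, limma adjusted p = 0.0231). Of the 4 trachea and epidermis markers, the tendon cell factor sr was the 1 called, with 56.2 and 50.4 normalized counts in w1118 and 468 and 462 in bru1M3 (log2 fold change 3.10, limma adjusted p = 2.8e-04). The other 3 were not called, with log2 fold changes of -0.34 for btl, -0.32 for trh and -0.44 for vvl, and the part of these markers in the differences above was not tested.

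Among 6 other nuclear receptors tested, svp, related to vertebrate COUP transcription factors, was the 1 called higher, at 228 and 223 normalized counts in w1118 and 398 and 510 in bru1M3 (log2 fold change 0.99, limma adjusted p = 0.0182). Of the 8 genes of the juvenile hormone response, 1 was higher and 1 lower. gce, a juvenile hormone receptor, had 1026 and 1008 normalized counts in w1118 and 266 and 511 in bru1M3 (log2 fold change -1.46, SE 0.30, limma adjusted p = 0.0148). Jheh2, a juvenile hormone epoxide hydrolase, had 369 and 335 against 603 and 740 (log2 fold change 0.92, limma adjusted p = 0.0174). Antisense gene models share 40.7% of the exon sequence of gce and 91.6% of that of Jheh2, and whether the authors' counting used strand is not given in the sources used here.

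**Figure D4:**
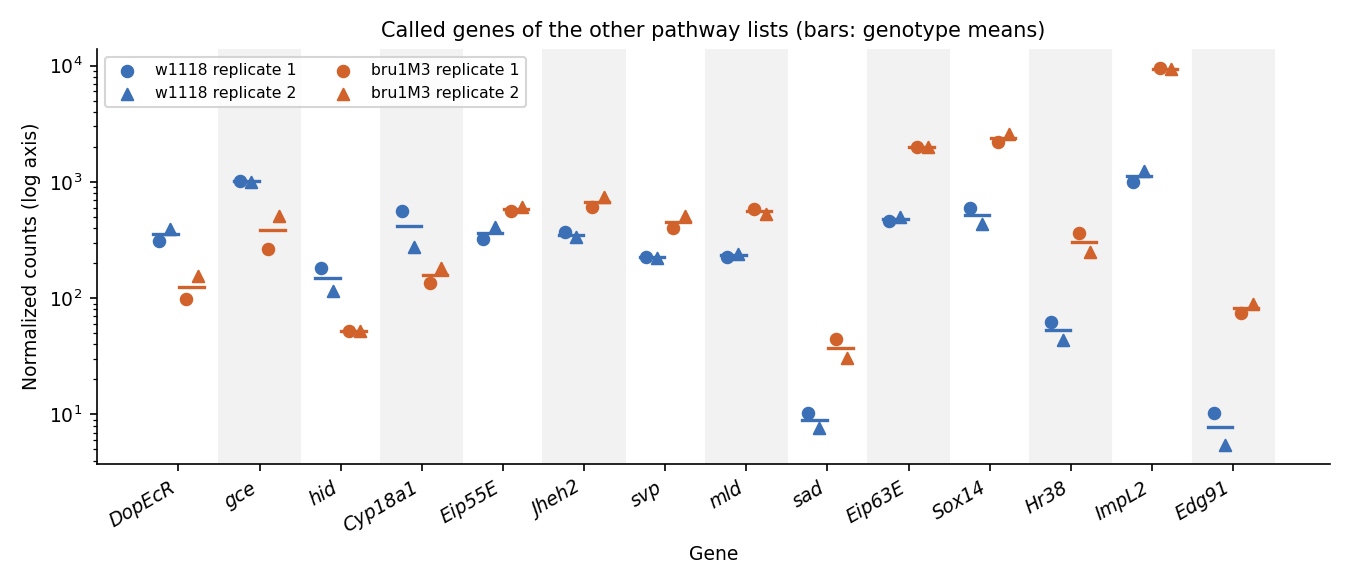
Normalized counts (log axis) in each library for the 14 called genes of the other pathway lists, ordered by log2 fold change, with w1118 in blue, bru1M3 in orange, circles for replicate 1, triangles for replicate 2 and bars for genotype means (n = 2). The genotypes do not overlap in any of the 14, and the margin between them is widest in ImpL2 and Edg91.

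Eip63E, ImpL2 and Sox14 kept adjusted p-values under 0.05 in all 15 alternatives. The other 11 genes lost the call without bru1M3 replicate 1, with adjusted p-values of 0.0539 for gce, 0.0664 for mld, 0.0667 for Jheh2, 0.0680 for Hr38 and svp, 0.0740 for Edg91, 0.0957 for DopEcR, 0.151 for hid, 0.167 for Eip55E, 0.223 for sad and 0.271 for Cyp18a1. Without bru1M3 replicate 2 the adjusted p was 0.0712 for Edg91, 0.0966 for Jheh2, 0.108 for svp, 0.116 for sad, 0.123 for hid, 0.136 for Cyp18a1 and 0.179 for Eip55E. Without w1118 replicate 1 it was 0.0562 for sad, 0.0570 for svp, 0.124 for hid, 0.165 for Cyp18a1, where the log2 fold change was -0.80, and 0.227 for Eip55E. Without w1118 replicate 2 it was 0.0593 for svp, 0.0634 for Eip55E, 0.0704 for Jheh2 and 0.0844 for sad. The call of sad was also lost with DESeq2 (adjusted p = 0.0548) and with equal totals of nuclear genes (adjusted p = 0.0690), and that of Eip55E with DESeq2 (adjusted p = 0.0565) and 5 other settings (adjusted p up to 0.133).

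Exon use was described from the authors' usage score, 1 value per genotype and exon bin, where a bin is a stretch of exon, as cut by DEXSeq, that lies in the same set of transcripts. The score has no stated unit and no error, and it is relative within a gene, so differences are given as descriptions. The authors deposited a filtered set of bins, so bin numbers skip. Some exons of the members, first exons among them, have no score. The accounts below cover only the bins that remain and are not full profiles of the genes. Of the 48 member bins, 23 had a higher and 25 a lower score in bru1M3. The median absolute difference was 0.64, beside 0.54 over the 44278 bins of all genes with scores, and 10% of all bins differed by at least 1.57.

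The widest differences were in br. Its transcripts share their first coding exons and end in alternative 3′ exons that encode different zinc-finger pairs. Bin 18 (X, 1643068 to 1645162, coding sequence and 3′ UTR of br-RE, br-RG, br-RM, br-RN and br-RO) scored 3.03 in w1118 and 5.73 in bru1M3, a difference of 2.70 that 2.33% of all bins with a mean of at least 10 normalized reads reached in size. Bin 23 (X, 1658788 to 1664869, coding sequence and 3′ UTR of br-RA and br-RL) went the other way, from 6.70 in w1118 to 3.53 in bru1M3, a difference of -3.17 reached by 1.50% of all bins. Bin 20, a 3′ UTR piece of br-RB, also scored lower in bru1M3, by -1.17, and bin 19, of the coding end of br-RB and 5 other transcripts, differed by 0.60. The 2 bins found in all 16 transcripts differed by 1.34 (bin 11) and -0.57 (bin 14). These bins hold means of 15.8 to 82.0 normalized reads, so each score rests on little coverage.

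In Eip74EF, scores differed along the gene. The distal promoter gives Eip74EF-RA, Eip74EF-RC and Eip74EF-RE and the proximal one Eip74EF-RB and Eip74EF-RD. Of the 5 bins specific to the distal transcripts, 4 scored higher in bru1M3, by 0.37 to 1.35, the widest in bin 8 (3L, 17598187 to 17598468, coding), and bin 11, their first exon, differed by -0.07. Bin 5, the first exon of the proximal transcripts, differed by 0.60 at a mean of 9.88 normalized reads. The shared coding bins 4 and 3 scored lower in bru1M3, by -1.59 and -2.42. Bin 3 (3L, 17564606 to 17564860) was at 7.01 in w1118 and 4.60 in bru1M3, a difference reached by 3.14% of all bins.

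EcR has alternative promoters whose transcripts encode receptors with different amino termini. Bin 12, of EcR-RA, EcR-RD and EcR-RE, differed by 0.14. In the other promoter region bin 9, the first exon of EcR-RB, EcR-RC and EcR-RG, differed by 0.76 and bin 8, of EcR-RB and EcR-RG only, by -0.85. The widest differences lay in bins common to all 6 transcripts. Bin 4 (2R, 6092277 to 6093733, the end of the coding sequence and the start of the 3′ UTR) scored 8.22 in w1118 and 10.1 in bru1M3, a difference of 1.85 reached by 6.65% of all bins. Bin 7 (2R, 6094557 to 6095071, coding) differed by -1.11, and bin 1, the far 3′ UTR of EcR-RG, by -1.10.

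In Eip75B, whose isoforms start from promoters spread over the locus, the 3 distal bins with scores were higher in bru1M3. Bin 16 (3L, 18060946 to 18061453, the first exon of Eip75B-RE) differed most, from 3.26 in w1118 to 4.82 in bru1M3, at a mean of 20.5 normalized reads, and bins 12 and 13 differed by 0.29 and 0.30. Bin 6 (3L, 17961005 to 17961814), the first exon of Eip75B-RD, was at 9.86 in w1118 and 8.87 in bru1M3. The shared coding bin 5 (3L, 17959382 to 17959620) differed by -1.04, the widest in that direction, and bin 3, with the coding end, by 0.97.

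**Figure D5:**
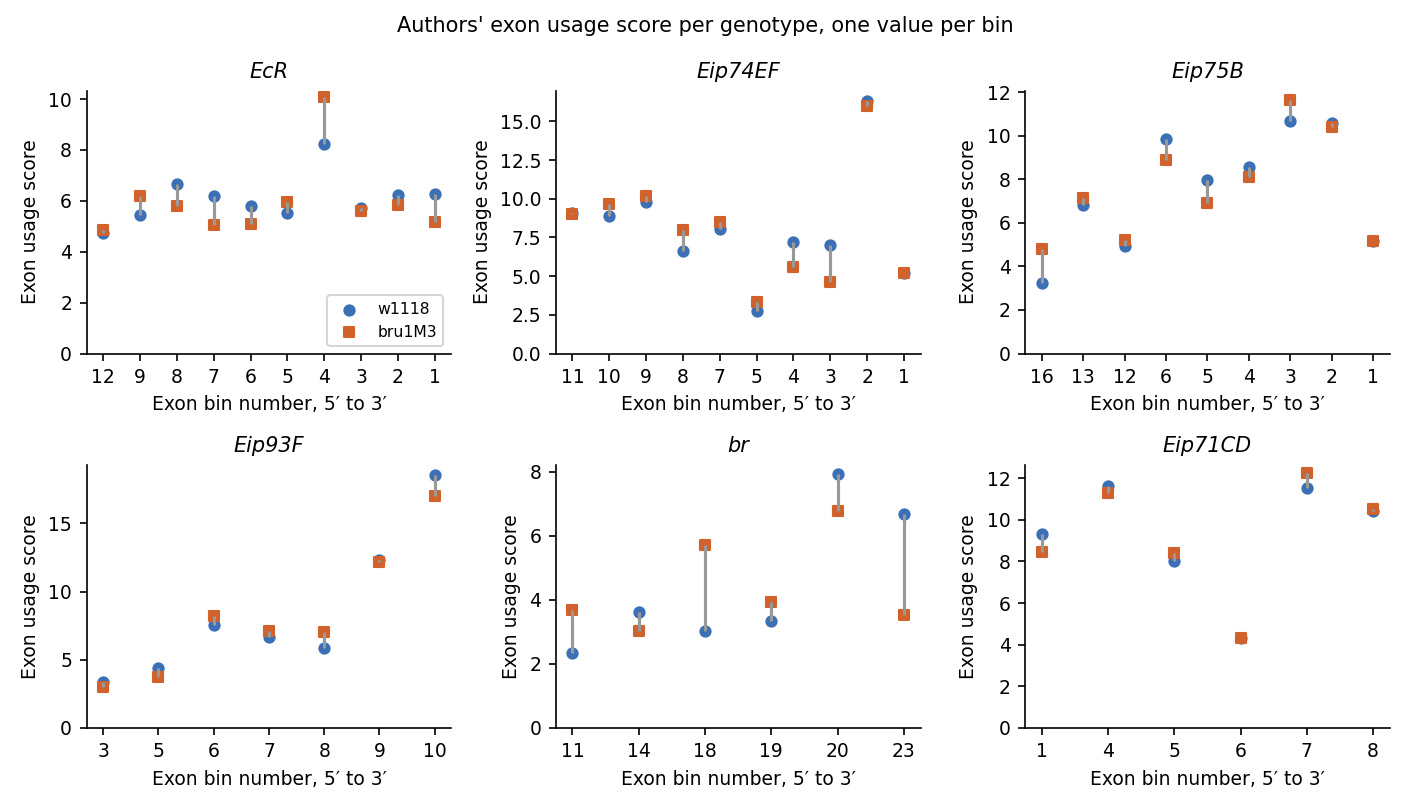
The authors' exon usage score (no unit, 1 value per genotype, no error) for each deposited exon bin of the 6 ecdysone response genes with bins. Bins run in transcript order from 5′ to 3′, with w1118 as blue circles and bru1M3 as orange squares joined by a line. Bins outside the filtered set are not drawn, so bin numbers skip. The widest gaps are in br bins 18 and 23, where the genotypes differ by 2.70 and -3.17, while the bins of Eip71CD differ by at most 0.85 in size.

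In Eip93F, the bin with the most reads, at a mean of 1539.7 normalized reads, was bin 10 (3R, 22006804 to 22014539), which is 7736 bp of 3′ UTR of Eip93F-RA and Eip93F-RC. Its score was 18.5 in w1118 and 17.0 in bru1M3, a difference of -1.53. The 3 internal coding bins 6, 7 and 8 scored higher in bru1M3, by 0.69, 0.42 and 1.18, the last at 3R, 21996330 to 21996787. In Eip71CD, the gene called at the gene level, the 6 bins differed by little. Bin 1 (3L, 15511052 to 15511169), the first exon of MsrA-RA, MsrA-RB, MsrA-RC and MsrA-RG, differed by -0.85 and bin 7 (3L, 15512476 to 15512736) by 0.70, and 31.1% and 39.3% of all bins differed by as much or more.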

How the data were processed

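mRNA was sequenced from IFM of 4 libraries, w1118 and bru1M3 with 2 replicates each, as 150 bp reads. Per the methods and the submitters' processing notes, reads were mapped with STAR 2.7.3a to BDGP6.22 with annotation release 6.32, sorted with SAMtools 1.1, counted per gene with featureCounts (Subread 2.0.0) and scaled with DESeq2 1.32.0, and exon bins were handled with DEXSeq, whose version is not given in the sources used here. The authors deposited gene values as a normalized signal, reads divided by a size factor. All values came out as whole reads within 0.01 at low counts and within a margin that widened with the count at high ones. For the highest genes this margin is too wide to test wholeness. For exon bins the authors deposited a usage score per genotype, with no error. Their fold changes and p-values were not used, and 4 library columns of the exon table that match no label were left out.

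Here log2(value + 1) of genes with at least 10 normalized counts in at least 2 libraries was tested with limma 3.58.1 (R 4.3.3; moderated test with a mean trend, two-sided, Benjamini-Hochberg adjustment over 9228 genes), and fold changes are on that scale, which understates those of low genes. edgeR 4.0.16 (quasi-likelihood) and DESeq2 1.42.0 on recovered reads, other pseudocounts, filters and scalings, a replicate block and leaving out each library were the alternatives. An exact permutation test of 2 against 2 libraries cannot go below p = 0.333. The scripts were tested on simulated data. Gene coordinates are from the BDGP6.54 annotation and those of bins from the deposited table. Of all bins, 98.2% share at least an edge with an annotated exon there, and 87.1% have both edges annotated. The transcripts named for a bin are taken from that annotation too. The members and lists were chosen with earlier results of these data known. By rule the text names all members, every gene of the pathway lists called by limma, bru1 and, per member, the bins with the widest difference in each direction. The genes tai, Smr and sr and the other bins were chosen after their values were seen.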

Additional observations from a re-analysis of the deposited data

How the results depend on the processing

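With an adjusted p threshold of 0.01, limma called 0 ecdysone response genes, 668 higher and 223 lower among all genes, and 6 higher and 0 lower among the other pathway genes. Leaving out 1 library gave 0 to 1 members lower and 0 higher, 475 to 998 higher and 126 to 505 lower among all genes, and 3 to 8 pathway genes higher and 0 to 4 lower, the fewest without bru1M3 replicate 1. Over these refits the log2 fold change ran from -0.30 to 0.12 for usp, from -0.31 to 0.21 for Eip74EF and from -0.33 to 0.28 for Hr39; no other member changed sign under any alternative. With equal totals of nuclear genes the median of all genes moved to -0.13 and that of the members to -0.43. The labels do not say whether replicate numbers pair the libraries. Replicate differences of the genotypes had a correlation of 0.03 across 9228 genes, which cannot settle how the libraries were prepared. With the replicate block, 0 members were higher and 1 lower, and 1265 genes were higher and 1029 lower. Hr3 and sad could not be tested at a minimum of 50 normalized counts. Among the members, depth limits Hr3 and br most, with 6 to 24 and 40 to 135 reads per library. The causes of these shifts were not tested.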
